A study of Mus musculus with 24 samples.

Results

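Levels of 7 genes of the cell death machinery were compared in the blood of irradiated and unirradiated mice: the caspases *Casp1*, *Casp4*, *Casp2*, *Casp9* and *Casp6*, and the apoptosome components *Apaf1* and *Cycs*. They were chosen by name, and 10 of the 39429 probes on the array carry one of their names. All 7 are among the 17797 genes tested. *Casp4* has 2 probes, *Cycs* has 3 and the others have 1 each.

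Caspases are proteases that cut other proteins after an aspartate residue. In the mitochondrial route to apoptosis, cytochrome c, the product of *Cycs*, leaks out of mitochondria and binds Apaf1, which assembles into a ring called the apoptosome and switches on the initiator caspase-9, after which executioner caspases dismantle the cell. Caspase-2 is an initiator activated on another platform, the PIDDosome, that is known from the response to DNA damage and to extra centrosomes. Caspase-1 and caspase-4 (called caspase-11 in older mouse work) belong instead to inflammation: on inflammasomes they cut gasdermin D, and caspase-1 matures interleukin-1β and interleukin-18. All of these proteins are made as inactive precursors or held apart, so the RNA level of a gene is not a measure of its activity.

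Male C57BL/6J mice aged 2 months (young) or 21 months (old) received x-rays at 4 Gy or were left unirradiated, which gave 4 groups of 6 mice. Blood was drawn by cardiac puncture 24 h later, and RNA of each mouse was measured on its own single-dye (Cy3) Agilent array. A level is given below as the log2 signal minus the median of the same array, so that a step of 1 is a doubling relative to the array, and levels are compared between groups for one probe and never between probes. A difference was called when limma's p was below 0.005 and its Benjamini-Hochberg adjusted p over 17797 genes was below 0.05.

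Some arrays stood apart. The median signal ranged from 8.66 to 44.8 over the 24 arrays, and the lowest values, 8.66 and 8.84, were old irradiated replicates 4 and 6, which also resembled each other (median absolute log2 difference 0.182, against a median of 0.318 over 60 pairs within groups). Hepatocyte markers, which blood cells should lack, were on average 6.70 to 7.47 log2 units above the median young unirradiated array in old irradiated replicates 2, 3 and 5. The same list stood at 7.19 to 8.20 in young irradiated replicates 2, 4 and 5, whereas it lay between -3.33 and -2.85 in the old unirradiated mice and between -2.31 and 4.37 in the young ones. Values without these arrays are given beside the results below where they bear on them. All young arrays were scanned on one day and all old arrays on another, so age and scan day cannot be told apart. In whole blood, fewer cells of a type and less RNA per cell cannot be told apart either.

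The sequences of the probes are shown for the 4 genes on which the results turn, as the first 30 of 60 bases of each probe, read 5′ to 3′, with positions in the mm9 build that the array files name. Capitals mark the bases that the printed stretches of the *Casp4* probes share.
Casp1, chr9:5307206-5307265, plus strand: ctatgctgagaatcgtgccaataagaagcc
Casp4 probe A_55_P2091461, chr9:5336658-5336717, plus strand: ccagcCTAAGCAACACAGTGGGATTCTGTT
Casp4 probe A_55_P1984168, chr9:5336663-5336722, plus strand: CTAAGCAACACAGTGGGATTCTGTTccata
Casp2, chr6:42232367-42232426, plus strand: ccaagtggtttgaagacttgctgccaaatt
Cycs probe A_52_P82247, chr6:50514522-50514581, minus strand: aattgtccttaaatacccactcagaaacac
Cycs probe A_55_P2020153, chr6:50515092-50515151, minus strand: atgaatggctagcaatgtttttgttggaca
The *Casp4* probes overlap by 55 of 60 bases, so they read the same piece of RNA and are not independent measurements. The *Cycs* probes do not overlap and can be set against each other. Each *Casp4* probe also shares a run of at least 16 bases with a probe of 1 other gene, a property of 19.7% of all probes, and none of the other 8 probes shares one. The remaining probes lie at chr4:141371773-141371832 (*Casp9*), chr3:129616453-129616512 (*Casp6*), chr10:90452580-90452639 (*Apaf1*) and chr6:50512563-50512622 (the third *Cycs* probe). The files place the probes on the genome but do not say in which part of the gene they lie.

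The promoters of *Casp1* and *Casp4*, neighbouring genes on chromosome 9, and of *Cycs* are shown because these genes stood out in the comparisons below. They are taken from RefSeq (GRCm38.p6), 250 bases before to 50 bases after the start of the transcript, and all 7 genes were found there. Capitals mark matches on either strand to the letters of 5 motifs: GGGNNTTCC for NF-kB, TTCNNNGAA for an interferon-gamma activated site, GAAANNGAA for an interferon-stimulated response element, GCGCNTGCG for NRF1 and TGACGTCA for a cAMP response element. The p53 half-site consensus was searched too.
Casp1, chr9:5298267-5298566, plus strand: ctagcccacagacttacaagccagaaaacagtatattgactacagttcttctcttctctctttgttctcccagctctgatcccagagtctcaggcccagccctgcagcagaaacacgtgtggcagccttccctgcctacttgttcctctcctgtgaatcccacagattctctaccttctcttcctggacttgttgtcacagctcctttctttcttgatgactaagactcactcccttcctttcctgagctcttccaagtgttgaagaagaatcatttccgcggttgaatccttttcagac
Casp4, chr9:5308599-5308898, plus strand: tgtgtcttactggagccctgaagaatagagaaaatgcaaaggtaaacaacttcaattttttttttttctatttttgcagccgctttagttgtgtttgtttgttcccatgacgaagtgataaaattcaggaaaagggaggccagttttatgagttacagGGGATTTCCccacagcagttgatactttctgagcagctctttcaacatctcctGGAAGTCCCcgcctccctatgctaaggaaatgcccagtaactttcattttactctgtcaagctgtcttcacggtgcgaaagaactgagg
Cycs, chr6:50566520-50566819, minus strand: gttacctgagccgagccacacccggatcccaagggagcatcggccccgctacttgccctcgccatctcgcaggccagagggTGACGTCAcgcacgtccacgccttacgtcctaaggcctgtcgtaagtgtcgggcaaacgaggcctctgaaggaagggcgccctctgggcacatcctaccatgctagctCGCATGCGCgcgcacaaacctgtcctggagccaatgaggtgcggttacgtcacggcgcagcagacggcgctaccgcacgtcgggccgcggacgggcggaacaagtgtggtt
The *Casp4* window held NF-kB letters starting 92 and 39 bases before the transcript start, where 5.82% of 32851 promoters hold at least 1 match. The *Cycs* window held a cAMP response element (1.79% of promoters) and NRF1 letters (6.31%). NRF1 letters also occurred in the windows of *Casp2* and *Apaf1*. No match was found in those of *Casp1*, *Casp9* and *Casp6*, which says only that these letters are not in these windows. The interferon and p53 letters, held by 8.3% (activated site), 8.56% (response element) and 8.36% (p53) of promoters, occurred in none of the 7. A match is a description of the letters and not a site.

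**Figure D1:**
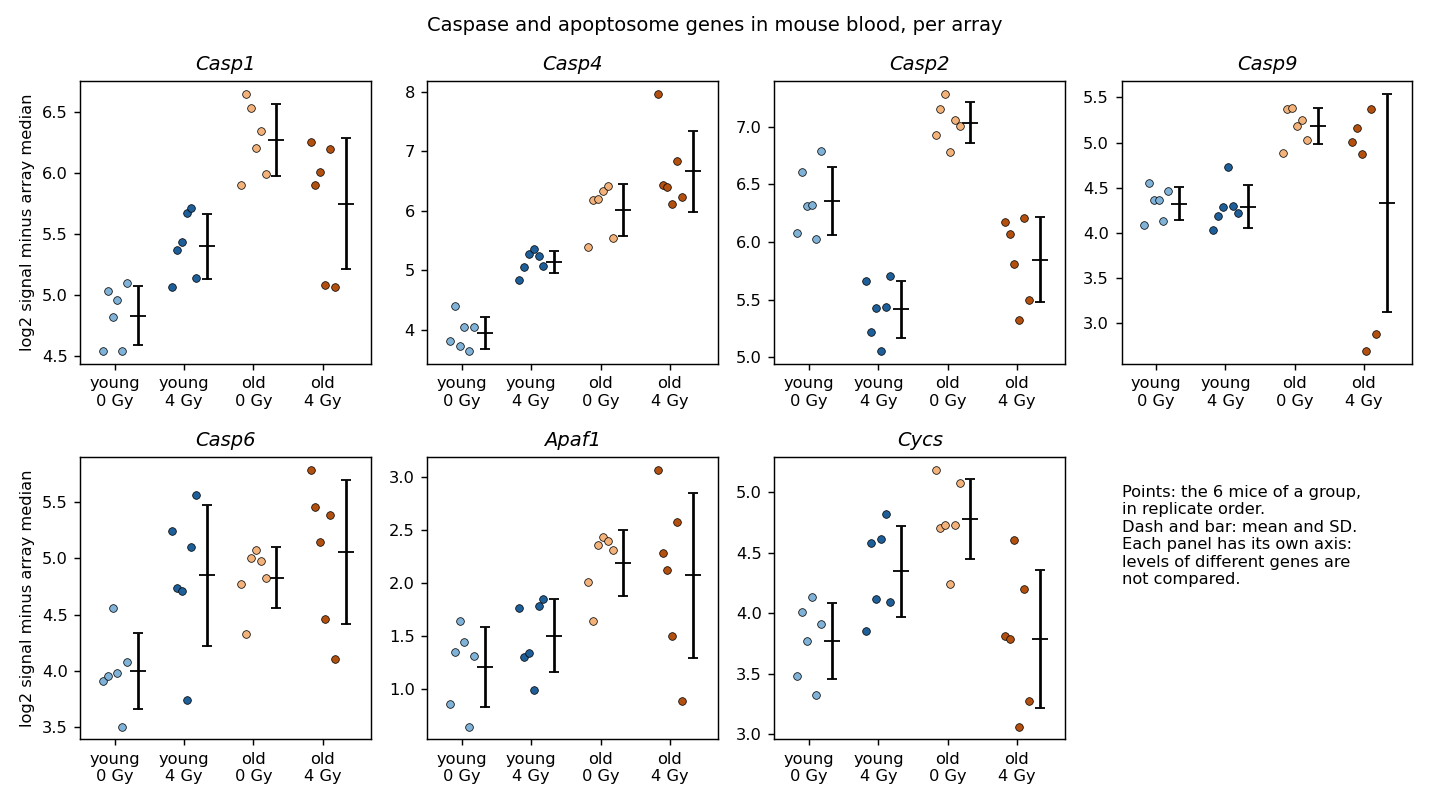
Level of each gene on each array (log2 signal minus array median, y axis) in the 4 groups of 6 mice (x axis), with the mean and SD beside the points. *Casp4* shows the order young unirradiated, young irradiated, old unirradiated, old irradiated; *Casp2* lies lower in both irradiated groups; old irradiated replicates 4 and 6 are the low pair of *Casp9* points.

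Among the 7 genes, 3 were called after irradiation of young mice: *Casp4* and *Casp1* rose and *Casp2* fell. Over all genes tested, 14.3% were called higher and 21.1% lower in that comparison, so 2 higher and 1 lower of 7 stands near the background. In old mice only *Casp2* was called, and it fell; the background was 7.49% higher and 17.4% lower. Irradiated and unirradiated groups did not overlap for *Casp4* and *Casp2* in young mice, and for *Casp2* in old mice, against 24.7% of all genes at the young age and 22.5% at the old age. The median of all genes was not 0 but -0.20 (young) and -0.26 (old). Other scalings put it between -0.32 and 0.21 in young mice, where the share of calls that were higher was 40.4% and reached 94% under normexp. For the old age the median moved as far as 0.29, and the share of calls that were higher went from 30.1% to 48% when arrays were scaled to the 75th percentile, 53.1% with the median of probes well above background on every array, 52% in the deposited table and 50% under normexp.

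Between unirradiated old and young mice all 7 genes were called higher in old mice. That count has to be read against the background of 48.5% called higher, 15.4% called lower and 48.6% without overlap, and against a median difference of 0.63 over all genes. Scaled to the 75th percentile, the median was 0.00, 10.8% of genes were called higher and 26.5% lower, and *Casp1* and *Casp4* were called. Quantile normalization called *Casp4* and *Apaf1* (17.1% of genes higher, 21.1% lower). In the deposited table (4.46% higher, 21.5% lower) *Casp4* alone was called among those of the 7 that were tested. The same held when the median was taken over probes well above background on every array (7.76% higher, 28.1% lower). Normexp called no gene at all. Filters differ between these settings, so some of the 7 genes were not tested. *Casp1* and *Casp9* were not tested with quantile normalization, in the deposited table or with the median of probes well above background. That last setting also left out *Apaf1*, the 75th percentile left out *Casp9* and normexp left out *Apaf1*. Between irradiated old and young mice *Casp4* was the 1 gene called, against 1.4% of genes higher and 0.596% lower. That split also turned, to 0.192% higher and 0.563% lower at the 75th percentile. The difference between the ages in the response to radiation was called for none of the 7 genes, and for 0% of all genes. Of the 7, *Casp1* and *Cycs* had an unadjusted p below 0.05, with limma adjusted p of 0.117 and 0.0963 over all genes.

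**Figure D2:**
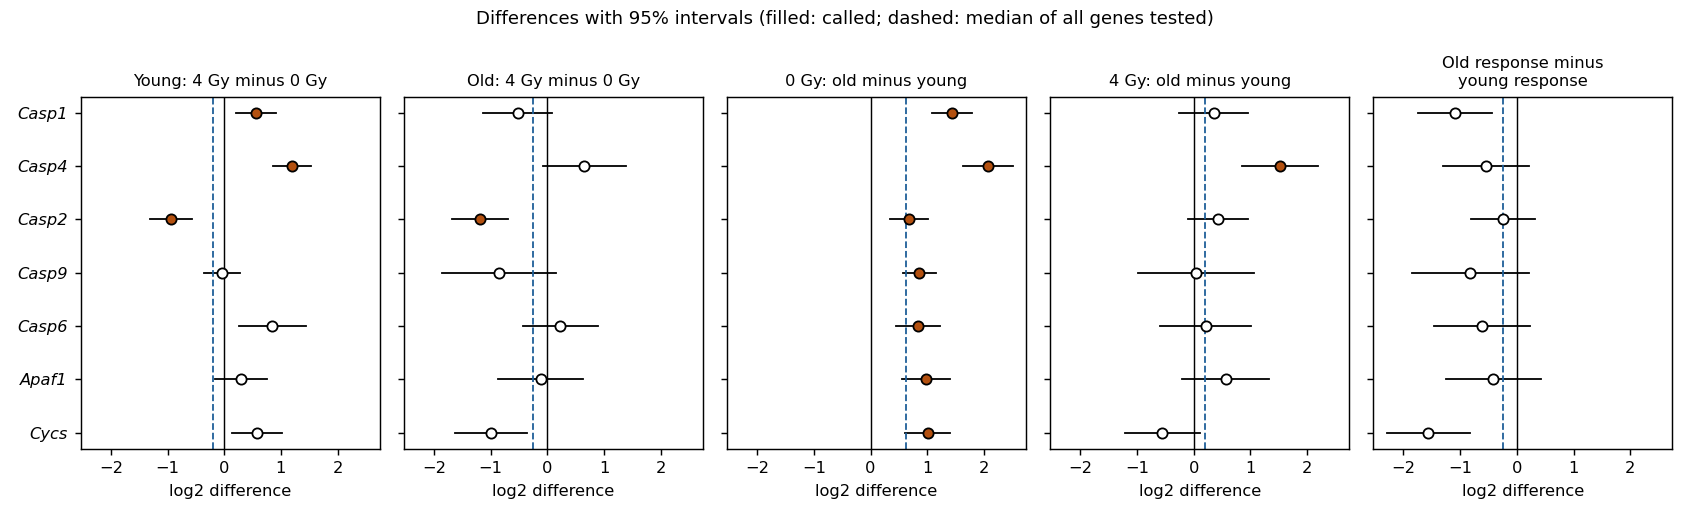
Difference between groups of each gene (x axis, log2) with its 95% interval from limma, for the 4 comparisons and the difference between the ages' responses. Filled points were called and the dashed line is the median of all genes tested; unirradiated old minus young is the comparison in which that line lies farthest from 0, at 0.63.

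*Casp4*, the sensor of bacterial lipopolysaccharide inside the cell, showed the strongest age difference of the 7. Its level in young mice ran from 3.65 to 4.39 (median 3.93) without irradiation and from 4.84 to 5.36 (median 5.16) after it. All 6 irradiated young mice lay above all 6 controls. In old mice the level ran from 5.38 to 6.42 (median 6.19) without irradiation and from 6.12 to 7.97 (median 6.41) after it. The old groups overlapped, and the highest value belonged to replicate 1.

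The rise of *Casp4* in young mice was 1.20 ± 0.16 (log2, SE, n = 6 and 6), or 2.29-fold, with a limma adjusted p of 7.98e-05, and it was called under 26 of 27 alternatives, the exception being normexp. Within the 1 slide that held both young groups, with 2 mice of each, the difference was 1.11, and without the arrays with high hepatocyte markers it was 1.11 (adjusted p = 0.00114). In old mice the difference was 0.65 ± 0.34 (adjusted p = 0.152), with an interval from -0.08 to 1.38. It was 0.39 without replicate 1, 0.90 without the dim replicates 4 and 6 (adjusted p = 0.0444, not called), 0.76 without the 3 arrays with high hepatocyte markers (adjusted p = 0.156) and 1.22 within the slide that held both old groups. The irradiated mice of that slide were replicate 1, at 7.97, and replicate 2, at 6.43, against a control mean of 5.98. A response in old mice as large as in young mice lies inside that interval, and the tested difference between the responses was -0.54 (adjusted p = 0.35), or -0.30 without the dim pair (adjusted p = 0.732).

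Unirradiated old mice had a *Casp4* level 2.06 ± 0.20 above that of unirradiated young mice (4.18-fold, adjusted p = 4.75e-06), higher than in 99.3% of all genes and 1.44 above the median of all genes. Under the other scalings that used the same probe, the difference was between 1.32 and 1.55. It was called under 25 of 26 alternatives. After irradiation the difference between the ages was 1.52 ± 0.31 (adjusted p = 0.0347). No value of the groups overlapped, which held for 5.05% of all genes. That call was narrow: it was lost under the 5 other scalings, when any 1 of 8 arrays was left out, without the background filter, with the mouse number as a block (adjusted p = 0.159) and without the 3 young arrays with high hepatocyte markers (1.60, adjusted p = 0.241). The difference stayed between 1.03 and 1.77, the latter without the dim replicates 4 and 6 (adjusted p = 0.00218). The second, overlapping probe gave 1.12, 0.62, 1.98 and 1.48 in the same 4 comparisons.

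*Casp1*, the caspase of the classical inflammasome, had a smaller response. Its level in young mice was 4.54 to 5.09 (median 4.89) in controls and 5.07 to 5.71 (median 5.40) after irradiation, and 5 of the 6 irradiated mice lay above every control. In old mice it was 5.90 to 6.65 (median 6.27) without and 5.06 to 6.25 (median 5.95) with irradiation. The low pair among the old irradiated mice, 5.06 and 5.08, are the dim replicates 6 and 4.

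The rise of *Casp1* in young mice was 0.57 ± 0.16 (limma adjusted p = 0.0123), just inside the threshold. It was called under 11 of 24 alternatives, always with the same sign, and without the arrays with high hepatocyte markers it was 0.38 (adjusted p = 0.106). Within the shared slide it was 0.40. In old mice the difference was -0.52 ± 0.28 (adjusted p = 0.17), -0.18 without replicates 4 and 6, and 0.09 under normexp. The difference between the responses was -1.09 ± 0.32 (adjusted p = 0.117). It was called in 2 of 38 alternatives: without old irradiated replicate 3, at -1.14 (adjusted p = 0.0474), and without the 3 old arrays with high hepatocyte markers, at -1.38 (adjusted p = 0.00334). In both settings calls over all genes rose as well, from 0% in the main setting. Without those 3 arrays, the dim replicates 4 and 6 make up 2 of the 3 remaining old irradiated values. Without the dim pair the difference between the responses was -0.75 (adjusted p = 0.173).

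In unirradiated mice *Casp1* was 1.44 ± 0.17 higher at the old age (2.72-fold, adjusted p = 1.35e-05), and the groups did not overlap. This was 0.81 above the median of all genes and larger than the difference of 96.4% of them. The same probe gave 0.78 to 0.92 under the other scalings. After irradiation the ages differed by 0.35 ± 0.29 (adjusted p = 0.525), a difference that turned to -0.05 under normexp and -0.02 after quantile normalization. Without the dim replicates 4 and 6 it was 0.69 (adjusted p = 0.0137), which was called.

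Several lists of blood cell markers also differed between these groups. Between unirradiated ages, 7 of 9 neutrophil, 6 of 6 monocyte and 5 of 6 platelet genes were called higher in old mice, against 48.5% of all genes. That share was 10.8% with arrays scaled to the 75th percentile, but the lists were not counted under that scaling. Mean neutrophil marker levels ran from 1.03 to 2.71 in unirradiated old mice and from -0.41 to 0.50 in unirradiated young mice, and monocyte markers from 0.98 to 1.81 and from -0.15 to 0.54. After irradiation of young mice 6 of 6 platelet, 4 of 6 natural killer cell, 4 of 9 neutrophil and 7 of 8 tissue macrophage genes rose, against 14.3% of all genes, with macrophage means of 2.57 to 5.11 against -0.83 to 2.07 in the controls. Platelet genes rose in old mice too, 6 of 6 against 7.49% of all genes, and platelet means went from -0.41 to 0.42 in young controls to 0.50 to 2.51 after irradiation, and from 0.74 to 1.71 in old controls to 2.39 to 3.25. Not every list followed *Casp1* and *Casp4*. No natural killer cell gene was called between unirradiated ages, and 1 of 8 tissue macrophage genes was lower in old mice (15.4% of all genes). In irradiated young mice 2 of 6 monocyte genes rose and 1 fell (14.3% and 21.1%). In irradiated old mice, where the *Casp1* difference was -0.52, 1 monocyte gene rose and 3 fell (7.49% and 17.4%). No neutrophil or natural killer cell gene was called there. In old irradiated replicates 4 and 6, monocyte markers were at -1.59 and -1.29, below the range of 0.38 to 0.99 in the other 4 mice. The part of these cells in the levels of *Casp1* and *Casp4* was not tested.

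*Casp2*, the PIDDosome caspase, was the 1 gene of the 7 called in both ages after irradiation. In young mice its level was 6.03 to 6.79 (median 6.32) in controls and 5.06 to 5.70 (median 5.43) after 4 Gy. In old mice it was 6.78 to 7.28 (median 7.03) in controls and 5.33 to 6.21 (median 5.94) after 4 Gy. At both ages every irradiated mouse lay below every control of its age.

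*Casp2* fell by 0.94 ± 0.17 in young mice (limma adjusted p = 7.56e-04), a 1.92-fold difference, and by 1.19 ± 0.23 in old mice (adjusted p = 0.00266), a 2.28-fold difference. Relative to the median of all genes the differences were -0.74 and -0.93. The fall was called under 26 of 27 alternatives in young mice and 28 of 29 in old mice, normexp being the exception at both ages, with differences of -0.39 and -0.50 under that correction. Within the slides holding both groups the differences were -0.97 and -0.91. Without the arrays with high hepatocyte markers they were -0.76 in young mice (adjusted p = 0.00938) and -1.37 in old mice (adjusted p = 0.00275).

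The age difference of *Casp2* turned with the scaling. The difference between unirradiated old and young mice was 0.68 ± 0.16, which is 0.05 above the median of all genes, and it was -0.02 after quantile normalization and -0.10 in the deposited table. The difference between the responses was -0.25 (adjusted p = 0.554), with an interval from -0.81 to 0.31, and turned positive under 4 of the other scalings, up to 0.15. Between irradiated ages *Casp2* differed by 0.43 ± 0.25 (adjusted p = 0.346), and by 0.65 without replicates 4 and 6 (adjusted p = 0.0169, called). B cell markers fell along with *Casp2* after irradiation: 8 of 8 genes fell in young mice and 7 of 8 at the old age, against 21.1% and 17.4% of all genes. Of 9 T cell genes 7 fell in young mice and 1 at the old age. B cell means were -3.05 to -2.08 in irradiated young mice and -3.82 to -1.49 in irradiated old mice, against -0.24 to 0.18 and 0.16 to 1.11 in their controls. The part of B and T cells in the fall of *Casp2* was not tested.

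*Casp9*, the caspase that the apoptosome activates, was not called after irradiation. Its level in young mice was 4.08 to 4.55 (median 4.36) in controls and 4.03 to 4.73 (median 4.25) after irradiation. The difference of -0.03 had an interval from -0.35 to 0.29 and turned to 0.30 under normexp. In old controls it was 4.88 to 5.38 (median 5.21), and in irradiated old mice 2.70 to 5.38 (median 4.94).

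The wide spread of *Casp9* in irradiated old mice came from a pair of mice. Replicates 4 and 6 had 2.70 and 2.88, and the other 4 mice had 4.87 to 5.38, within or just below the range of their controls. Over all 6 the difference was -0.85 ± 0.47 (limma adjusted p = 0.175), and without the pair it was -0.08 (adjusted p = 0.724). Without the 3 arrays with high hepatocyte markers, the pair makes up 2 of the 3 remaining values, and the difference was -1.66 (adjusted p = 0.0107), which was called. These same replicates had the highest red cell precursor markers of their group, 1.85 and 1.87 against -2.15 to -1.13, and their part in the *Casp9* value was not tested. Unirradiated old mice had *Casp9* 0.86 ± 0.14 above unirradiated young mice (adjusted p = 1.08e-04), without overlap, which is 0.23 above the median of all genes and was 0.24 to 0.34 under the other scalings. After irradiation the ages differed by 0.04 ± 0.47 (adjusted p = 0.975), which was -0.12 to -0.23 under the other scalings and 0.81 without the pair (called). The difference between the responses was -0.82 ± 0.50 (adjusted p = 0.301), -0.05 without the pair and -1.62 without the 3 old arrays with high hepatocyte markers (adjusted p = 0.00561, called). Without those 3 arrays calls over all genes rose as well, from 0% in the main setting.

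*Casp6*, an executioner caspase that cuts nuclear lamins, lay at 3.51 to 4.56 (median 3.97) in young controls and 3.74 to 5.56 (median 4.92) after irradiation. Of the 6 irradiated young mice 5 lay above every control, and replicate 4 lay at 3.74. The difference was 0.85 ± 0.27 with a limma adjusted p of 0.0222 and an unadjusted p of 0.0087, which missed the threshold. It was called in 3 of 27 alternatives: without replicate 4 it was 1.07 (adjusted p = 0.00118), without the 3 young arrays with high hepatocyte markers 1.17 (adjusted p = 0.00327), and with slide as a random block 0.75 (adjusted p = 0.0036). Within the shared slide it was 1.19.

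In old mice *Casp6* was at 4.33 to 5.07 (median 4.90) in controls and 4.11 to 5.79 (median 5.26) after irradiation, with the lowest values again in replicates 6 and 4. The difference was 0.23 ± 0.31 (adjusted p = 0.581), 0.61 without that pair (adjusted p = 0.0231, not called) and -0.04 without the arrays with high hepatocyte markers. Within the shared slide it was 0.72. At baseline the ages differed by 0.83 ± 0.18 (adjusted p = 9.88e-04), or 0.20 above the median of all genes. The same difference was 0.17 to 0.31 under the other scalings. After irradiation it was 0.21 ± 0.37 (adjusted p = 0.798) and between -0.02 and -0.14 under the other scalings, and it was 0.59 without replicates 4 and 6 (adjusted p = 0.154).

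*Apaf1*, the scaffold of the apoptosome, ran from 0.64 to 1.64 (median 1.33) in young controls and from 0.99 to 1.85 (median 1.55) in irradiated young mice. The difference was 0.30 ± 0.21 (limma adjusted p = 0.271), with an interval from -0.16 to 0.75. In old mice the level ran from 1.63 to 2.43 (median 2.33) in controls and from 0.88 to 3.07 (median 2.20) after irradiation. That difference, -0.12 ± 0.35 (adjusted p = 0.809), has no settled direction: it was 0.18 scaled to the 75th percentile and 0.32 without replicates 4 and 6. Without irradiation the ages differed by 0.98 ± 0.20 (adjusted p = 5.73e-04), or 0.35 above the median of all genes. With irradiation the difference was 0.57 ± 0.36 (adjusted p = 0.393), and 1.01 without replicates 4 and 6 (called).

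*Apaf1* and *Casp6* varied together from mouse to mouse. After removing the mean of each group, their levels correlated with r = 0.905 over 24 arrays, the highest value of the 21 pairs among the 7 genes, and *Casp1* and *Casp9* with r = 0.865. The arrays share slides, scan days and the dim pair, so the values are descriptions of these arrays. *Casp1* and *Casp4* had r = 0.720.

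*Cycs*, which encodes cytochrome c, had a positive difference after irradiation in young mice and a negative one in old mice, and neither passed the threshold. Its level (probe A_52_P82247) in young mice was 3.32 to 4.14 (median 3.84) in controls and 3.85 to 4.82 (median 4.35) after irradiation. In old mice it was 4.24 to 5.19 (median 4.73) in controls and 3.06 to 4.61 (median 3.80) after irradiation. Of the 6 irradiated young mice 3 lay above every control, and of the 6 irradiated old mice 5 lay below every control.

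The *Cycs* difference was 0.57 ± 0.20 in young mice (limma adjusted p = 0.0338, unadjusted p = 0.0145) and -0.99 ± 0.30 in old mice (adjusted p = 0.0201, unadjusted p = 0.00502). It was called under 1 of 27 alternatives in young mice and 11 of 29 in old mice, always with the same sign. Without the dim replicates 4 and 6 the old difference was -0.68 (adjusted p = 0.0313), and without the 3 arrays with high hepatocyte markers -1.40 (adjusted p = 0.00357). Within the slides holding both groups the young difference was 0.60 and the old one -1.11. The difference between the responses was -1.56 ± 0.35, with an interval from -2.29 to -0.83, among the lowest 3.3% of all genes, with an unadjusted p of 1.86e-04 and an adjusted p of 0.0963. The sign was negative in all 41 alternatives, between -1.97 and -0.99. It was called in 2 of them: without old irradiated replicate 3, at -1.73 (adjusted p = 0.0239), and without the 3 old arrays with high hepatocyte markers, at -1.97 (adjusted p = 5.91e-04). In both settings calls over all genes rose as well, from 0% in the main setting, so these calls are not particular to *Cycs*. Without those 3 arrays, the dim pair makes up 2 of the 3 remaining old irradiated values. Without the dim replicates 4 and 6 the difference between the responses was -1.25 (adjusted p = 0.093). Unirradiated old mice had *Cycs* 1.01 ± 0.19 above unirradiated young mice (adjusted p = 3.46e-04), without overlap. This was 0.38 above the median of all genes, and the same probe gave 0.37 to 0.49 under the other scalings. After irradiation the ages differed by -0.56 ± 0.31 (adjusted p = 0.326), and by -0.69 to -0.83 under the other scalings.

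The second *Cycs* probe shown above, A_55_P2020153, gave 0.36 in young mice (exact permutation p = 0.0996, two-sided, n = 6 and 6) and -0.90 in old mice (exact permutation p = 0.00216, the smallest that 6 against 6 mice allow). Both probes thus had the same pair of signs. A_55_P2020153 is the brighter of them but did not pass the filter on change. Without that filter it stood for *Cycs*, and the old difference of -0.90 was then called (adjusted p = 0.0079) and the young one was not (adjusted p = 0.147). The third probe, A_55_P1968958, was not well above background on 23 of 24 arrays.

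Hepatocyte markers moved along with *Cycs* within the young irradiated mice, and only in part within the old ones. The 3 young irradiated mice with high hepatocyte markers, replicates 2, 4 and 5, had the 3 highest *Cycs* levels of their group, 4.58, 4.62 and 4.82, against 3.85 to 4.12 in the others. Without them the young difference was 0.25 (adjusted p = 0.341) and the difference between the responses was -1.24 (adjusted p = 0.286). In old irradiated mice replicates 3 and 5, also high in hepatocyte markers, had the highest *Cycs* levels of their group, led by 4.61, and replicate 2, high as well, had 3.79. Replicate 1, with the lowest hepatocyte markers of that group (-2.06), had 3.81, and the dim replicates 4 and 6 had 3.06 and 3.27. The part of hepatocyte RNA in these values was not tested.

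**Figure D3:**
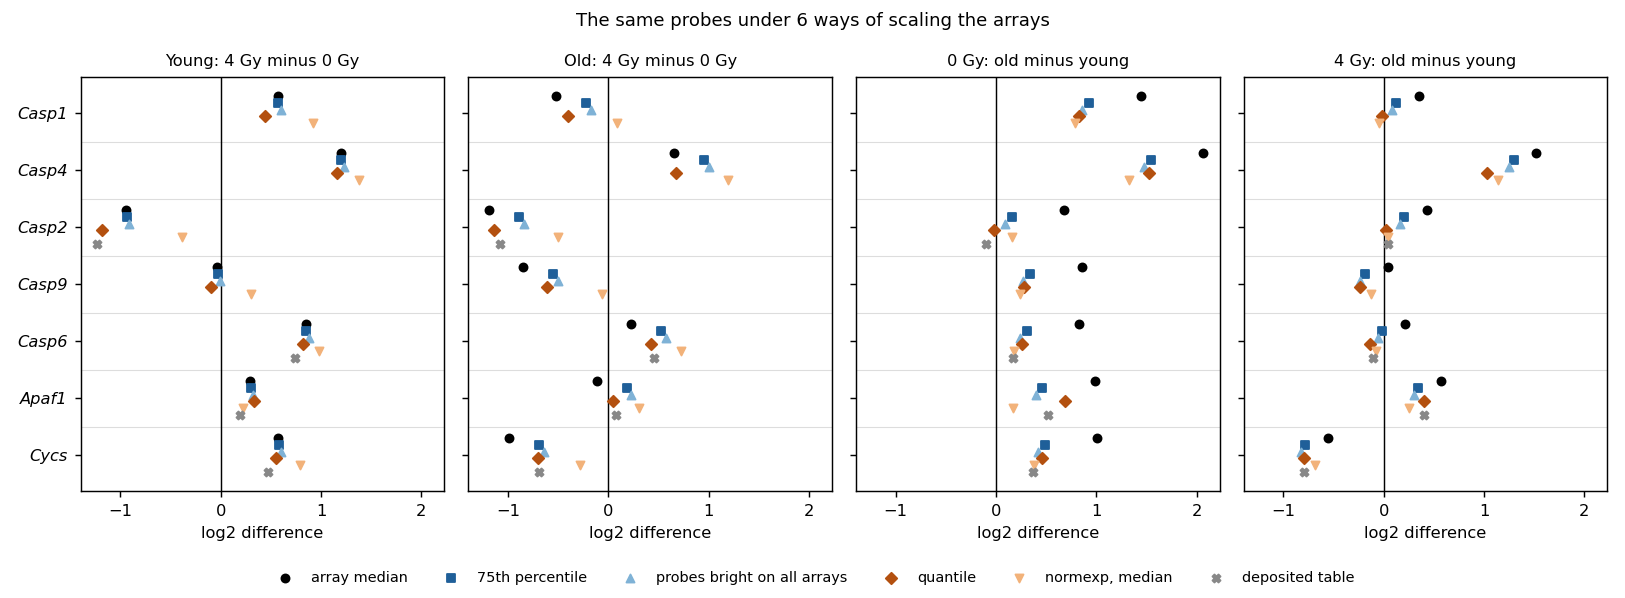
Log2 difference of the same probe of each gene (x axis) under 6 ways of scaling the arrays (symbols) in the 4 comparisons; 3 of the probes have no value in the deposited table. Between unirradiated ages the array median gives the highest difference of the scalings for each of the 7 genes, whereas *Casp2* stays below 0 at both ages after irradiation.

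Each of the 7 genes was also set beside all 15125 other genes with a symbol and a value on every array. The most similar profiles over the 24 arrays were those of *Ctcf* (r = 0.976) and *Gnl1* (r = 0.974) for *Casp2*, *Crlf2* (0.959) for *Casp4*, and *C2cd2l* (0.935) and *Trim41* (0.934) for *Casp1*. *Casp9* was closest to *Sh3bp5l* (0.975) and *Amdhd2* (0.972), *Casp6* to *Tmod3* (0.977) and *March6* (0.973), *Apaf1* to *Ergic2* (0.976) and *Nt5c2* (0.958), and *Cycs* to *Glrx3* (0.943) and *Vma21* (0.939). These values include the differences between groups, which many genes share.

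The partners of these genes were described by lists of 40 gene names, of which 39 were on the array and 38 were tested. After irradiation 8 of the 38 rose and 6 fell in young mice (median difference 0.13, against -0.20 over all genes), where 14.3% of all genes rose and 21.1% fell. In old mice 2 rose and 5 fell (median -0.35, against -0.26), where 7.49% of all genes rose and 17.4% fell. In unirradiated mice 25 were higher and 2 lower in old mice (median 0.79, against 0.63), where 48.5% of all genes were higher and 15.4% lower. The split of all genes was 10.8% and 26.5% at the 75th percentile, and the partners were not counted there. Between irradiated old and young mice, and between the responses, none was called. The age comparisons use the same mice as the radiation comparisons.

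Among 4 other caspases tested, *Casp8*, the initiator of the death receptor route, had differences after irradiation of 0.02 in young mice and -1.09 in old mice (limma adjusted p = 0.934 and 0.0316), of which neither was called. In unirradiated mice it was 0.88 ± 0.18 higher in old mice (adjusted p = 6.44e-04), against the median of 0.63 over all genes.

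Of 9 caspase inhibitors and apoptosome regulators, 2 rose and 2 fell in young mice, near the 14.3% and 21.1% of all genes, and 1 rose and 1 fell in old mice (7.49% and 17.4%). *Cflar*, which blocks caspase-8 at death receptors, rose by 1.59 ± 0.22 in young mice (adjusted p = 1.07e-04) and by 1.44 ± 0.28 in old mice (adjusted p = 0.00236). *Birc2*, an inhibitor of apoptosis protein, rose in young mice by 1.35 ± 0.39 (adjusted p = 0.0123). *Xiap*, which binds caspases directly, had differences of 0.58 (adjusted p = 0.0261) and -0.13 (adjusted p = 0.762), not called.

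The mitochondrial proteins that leave with cytochrome c gave 1 rise among 5 genes in young mice, where 14.3% of all genes rose. They gave no call in old mice. *Htra2*, *Aifm1* and *Diablo* had differences of 0.07, 0.52 and -0.26 in young mice and of -0.65, -0.84 and -0.88 in old mice, and none was called. Of 2 PIDDosome partners of caspase-2, *Cradd*, the adaptor that binds it, rose in young mice by 0.58 ± 0.13 (adjusted p = 0.00253), where *Casp2* itself fell. In old mice the *Cradd* difference was -0.14 (adjusted p = 0.645).

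Of 10 inflammasome partners and substrates, 2 rose and 1 fell in young mice, near the 14.3% and 21.1% of all genes. In old mice 1 fell and none rose, where 17.4% of all genes fell and 7.49% rose. *Pycard*, the adaptor that links sensors to caspase-1, rose in young mice by 1.30 ± 0.25 (adjusted p = 9.35e-04) and its difference in old mice was -0.64 ± 0.42 (adjusted p = 0.251). In unirradiated mice 8 of the 10 were higher and 1 was lower in old mice, against 48.5% and 15.4% of all genes. The 10 were not counted at the 75th percentile, where the shares of all genes were 10.8% and 26.5%. *Il1b*, a substrate of caspase-1, was 2.19 ± 0.41 higher (adjusted p = 3.81e-04) and *Nlrp1a*, an inflammasome sensor, 1.30 ± 0.17 higher (adjusted p = 2.65e-05), against the median of 0.63 over all genes.

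A list of 8 genes held proteins that caspases cut in apoptosis and a partner of such a protein, *Dffb*. Of these 1 rose and 3, *Dffb* among them, fell at each age. Over all genes 14.3% rose and 21.1% fell in young mice, and 7.49% and 17.4% at the old age. *Lmna*, the gene of lamins A and C and a substrate of caspase-6, rose by 1.83 ± 0.18 in young mice (adjusted p = 1.05e-05) and 1.80 ± 0.27 in old mice (adjusted p = 7.18e-04). *Acin1*, a chromatin condensation factor, fell by 0.995 ± 0.26 in old mice (adjusted p = 0.0116) and its difference in young mice was -0.64 (adjusted p = 0.0165, not called). *Dfna5*, a gasdermin gene, had differences of 0.99 and 0.85 (adjusted p = 0.0218 and 0.319), not called.

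**Figure D4:**
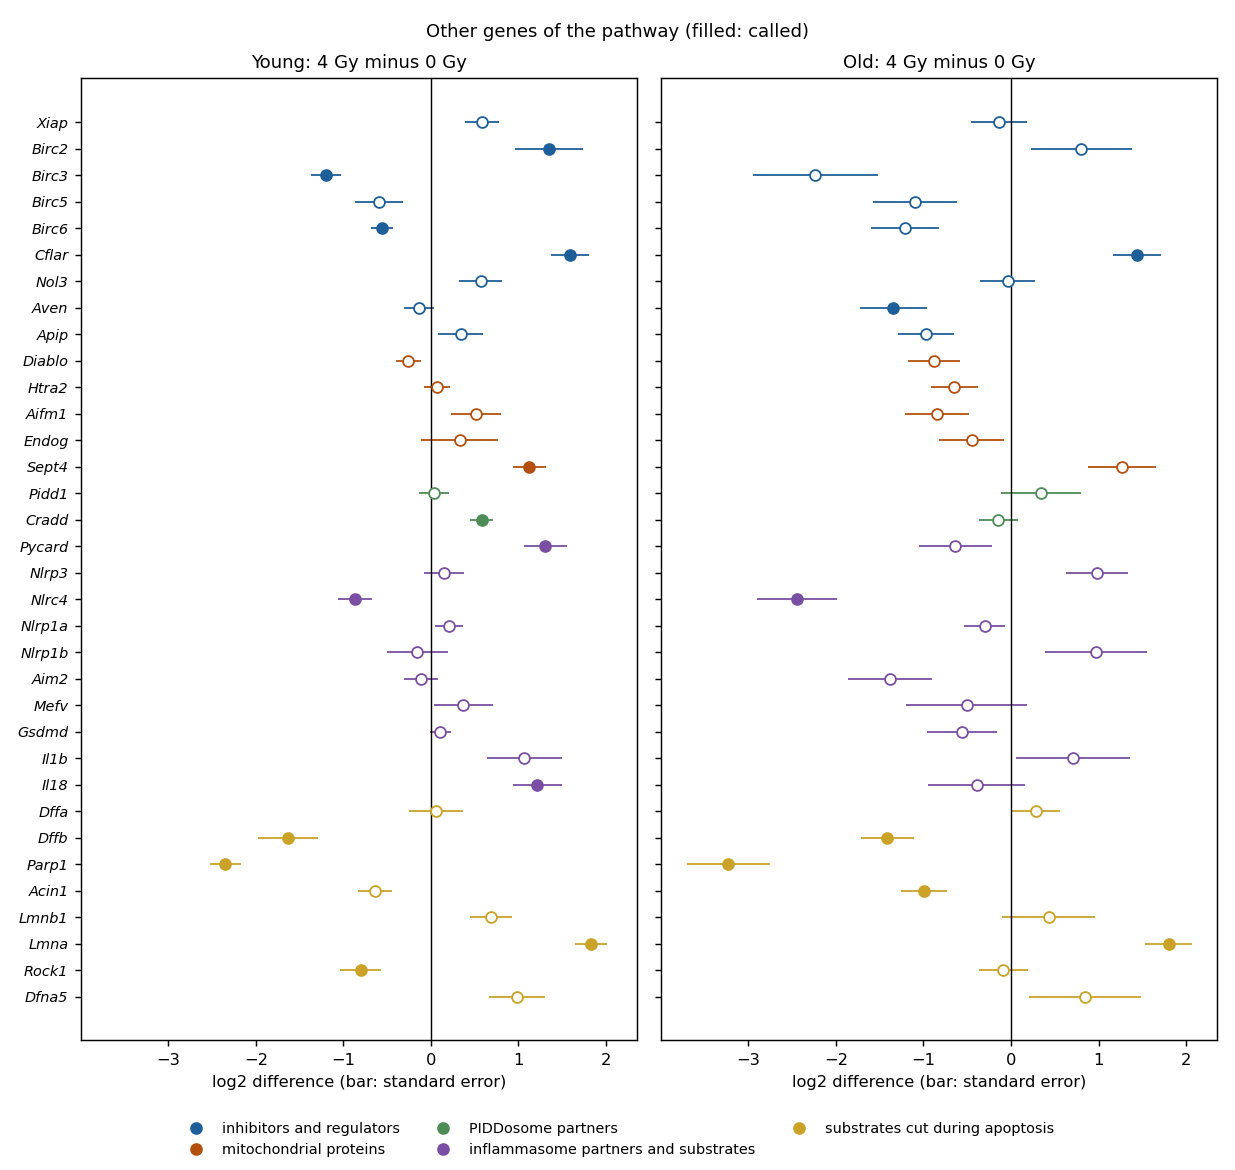
Log2 difference after irradiation (x axis, bar: standard error) of 34 tested partner genes (the lists other than the caspases) in young (left) and old (right) mice, coloured by list, with called genes filled. Filled points to the right of 0 number 7 in young mice and 2 in old mice.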

How the data were processed

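Blood RNA of 24 mice was measured on 24 single-dye Agilent arrays. The authors deposited the intensity of each spot as written by Feature Extraction 12.0.2, with background subtracted and arrays not scaled to each other. They also deposited a table of log2 values, filtered and normalized before deposit, which was used as an alternative. The members and gene lists were chosen with earlier results of these data known.

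After log2, non-uniform spots were set to missing and the median of 43020 non-control spots was subtracted from each array. Probes non-uniform or not above background in at least 25% of arrays were dropped (24121 of 39429 remained, 18729 genes), as were probes that departed from their own median by 1.5-fold on fewer than 5 arrays (20%). Of the probes left, that with the highest mean stood for a gene (17797 genes). Comparisons used limma 3.58.1 in R 4.3.3 on the 12 arrays concerned (24 for the difference between responses), two-sided, following the thresholds of the study's methods. Single probes were tested by exact permutation (924 splits). The fits were tested on simulated data. Named partner genes are, per list, up to 3 called genes with the highest mean signal. Some genes that this rule or the search for similar profiles picked are not reported here. Between 43.9% and 64.4% of spots per array were well above background, which limits what dim probes show, and the number of arrays limits precision. Mouse numbers do not pair the groups: correlations of deviations between mice of the same number ran from -0.598 to 0.582. Alternatives were other scalings, background correction, filters, probes, tests, blocks and arrays left out.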

Additional observations from a re-analysis of the deposited data

Results flagged for a closer look

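In 2 groups 1 value stood far from the other 5 mice of their group, out of 40 groups of 6 examined (10 probes in 4 groups). By chance about 1 in 20 such groups would be marked. The third *Cycs* probe, A_55_P1968958, read 2.20 in young irradiated replicate 6 (nearest value -2.06), where it was well above background on that array alone. The second *Casp4* probe, A_55_P1984168, read 7.53 in old irradiated replicate 1 (nearest value 6.38), and the overlapping *Casp4* probe read 7.97 in the same mouse. Neutrophil markers of that mouse, at 3.29, were the highest of the 24 arrays, and their part in the *Casp4* value was not tested.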

How the results depend on the processing

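All values here are counts of called genes among the 7, or log2 differences, and leaving out or averaging the dim pair (old irradiated replicates 4 and 6) and leaving out young irradiated replicates 2, 4 and 5 were chosen after seeing the data. Of 504 values with 1 array left out, 473 kept their direction and their side of the threshold, and 9 turned. Of 548 values under other settings 463 were marked as unchanged and 27 as turned. For a fit, unchanged meant the same direction and the same side of the threshold. Values of another probe or within a shared slide were not set against the threshold. They were marked as unchanged when they lay within the pooled SD of the main difference, and for genes not called their sign was not checked. Calls after irradiation of young mice (3) became 0 under normexp and 5 with slide as a random block. In old mice (1) they became 0 under normexp, 3 without the 3 arrays with high hepatocyte markers, and 2 with quantile normalization, only probes well above background, no filter on change, the mean of all probes, trended robust variance, 1 fit of 24 arrays or the slide block; the range with 1 array left out was 1 to 2 (2 without old unirradiated replicate 4 or old irradiated replicate 3 or 5). Between unirradiated ages (7) they became 5 in 1 fit of 24 arrays. Under other scalings they became 2 with the 75th percentile, 2 with quantile, 1 with the median of probes well above background on all arrays, 0 with normexp and 1 in the deposited table. Between irradiated ages (1) they became 0 under those 5 scalings, without the background filter and without the 3 young arrays, and 5 without the dim pair, with a range of 0 to 1 when 1 array was left out. Calls over all genes also rose without the dim pair, far above the 355 of the main setting. The count of 5 therefore has to be read against a higher background. For the difference between responses (0) they became 3 without the 3 old arrays with high hepatocyte markers, and 0 to 2 with 1 array left out (2 without old irradiated replicate 3). In the settings with 3 and 2, calls over all genes rose as well, from 0 in the main setting. Without the 3 old arrays they also rose after irradiation of old mice, so both counts of 3 face a higher background. The cause was not tested.

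Directions turned as follows. Young radiation: *Casp9* from -0.03 to 0.30 under normexp and 0.01 with the slide block (-0.12 to 0.02 with 1 array left out). Old radiation: *Casp1* to 0.09 under normexp, *Casp6* to -0.04 without the 3 arrays with high hepatocyte markers, and *Apaf1* to 0.18 with the 75th percentile, 0.05 with quantile, 0.08 in the deposited table, 0.32 without the dim pair and 0.06 with it averaged (-0.32 to 0.12 with 1 array left out). Not marked as turned, *Apaf1* was 0.32 within the shared slide and the third *Cycs* probe gave 0.004, both in old mice. Unirradiated ages: *Casp2* to -0.02 with quantile and -0.10 in the deposited table. Irradiated ages: *Casp1* to -0.05 under normexp. *Casp9* went to -0.12 under normexp, -0.02 with the slide block and -0.77 without the 3 old arrays (-0.17 to 0.37 with 1 array left out). *Casp6* went to -0.02 with the 75th percentile, -0.14 with quantile, -0.06 with the median of probes well above background, -0.07 under normexp, -0.11 in the deposited table, -0.06 without the 3 old arrays and -0.11 without the 3 young arrays (-0.01 to 0.40 with 1 array left out). Difference between responses: *Casp2* to 0.04 with the 75th percentile, 0.04 with quantile, 0.07 with the median of probes well above background and 0.15 in the deposited table, and *Apaf1* to 0.03 without the dim pair.

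With the mouse number as a replicate block, the counts were 2, 1, 7 and 0 in the 4 comparisons and 0 for the difference between responses, and genes called overall were 5068, 3468, 10369 and 2; in no comparison did every array correlate best with its own number. Between 43.9% and 64.4% of spots were well above background, so a dim probe such as the third of *Cycs* gives only a bound.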
